A study of Schizosaccharomyces pombe with 9 samples.

Results

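The genes described here are 9 steps of the pheromone signaling pathway of fission yeast, *Schizosaccharomyces pombe*, taken by systematic ID from a count table of 6988 genes, of which 5165 are coding genes. They are *mam2* (SPAC11H11.04), *gpa1* (SPBC24C6.06), *rgs1* (SPAC22F3.12c), *ras1* (SPAC17H9.09c), *ste4* (SPAC1565.04c), *byr2* (SPBC1D7.05), *byr1* (SPAC1D4.13), *spk1* (SPAC31G5.09c) and *ste11* (SPBC32C12.02), and all 9 passed the filter on low counts. Poly(A)+ RNA-seq had been performed on 3 haploid strains of the h- mating type, with 3 biological replicates each, during logarithmic growth at 30 °C in YES, a rich yeast extract medium. The *ecl123*Δ strain carried *ecl1*Δ::hygMX, *ecl2*Δ::natMX and *ecl3*Δ::kanMX, the *ecl3*Δ strain carried *ecl3*Δ::kanMX as its only *ecl* deletion, and the WT strain carried no *ecl* deletion. The paper also lists mutant alleles of *leu1*, *ura4* and *his3* in all of its strains, and *ade6* alleles that could differ between them. Each genotype was 1 laboratory strain, so the p-values below measure the spread between cultures of a strain and not between independently made strains. The design allows the single and the triple mutant each to be set against WT, and against each other.

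A cell of h- mating type is an M cell, which secretes M-factor and senses the P-factor of its partner. P-factor binds the receptor Mam2, which activates Gpa1, the alpha subunit of a heterotrimeric G protein, and Rgs1 dampens that step. Gpa1 and the Ras GTPase Ras1, with the adaptor Ste4, act on a MAP kinase cascade of Byr2, Byr1 and Spk1. The output is Ste11, an HMG-box transcription factor that drives sexual differentiation genes, is held low in rich medium and rises upon nitrogen starvation. Ste11 binds a DNA element called the TR box and acts on its own gene as well as on genes of the pathway that activates it.

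The TR box core, TTCTTTGTT, was looked for on both strands in the 250 bases before and 50 bases after the annotated start of each transcript in the RefSeq annotation of build ASM294v3, since Ste11 is both a member and a regulator of this pathway. It was present at 4 of the 9 genes (*rgs1*, *ste4*, *spk1* and *ste11*), against 102 of 5138 coding genes (1.99%). The 7-base core CTTTGTT, which every TR box core contains, was present at 6 of the 9, the same 4 plus *mam2* and *gpa1*, against 532 of 5138 genes (10.4%). Neither was found at *ras1*, *byr2* or *byr1*. A match is a description of sequence and not evidence of binding. The stretches that hold the matches are shown 5′ to 3′ in the direction of the gene, with the matched cores in capitals (a core on the opposite strand reads AACAAAG), because the genes that hold them are set beside the mRNA levels below. All lie before the annotated start, that of *mam2* on the plus strand of chromosome I, *gpa1* and *ste11* on the plus strand of chromosome II, *rgs1* on the plus strand of chromosome I, and *ste4* and *spk1* on the minus strand of chromosome I.
mam2: tggaaattctaAACAAAGaggaattattg
gpa1: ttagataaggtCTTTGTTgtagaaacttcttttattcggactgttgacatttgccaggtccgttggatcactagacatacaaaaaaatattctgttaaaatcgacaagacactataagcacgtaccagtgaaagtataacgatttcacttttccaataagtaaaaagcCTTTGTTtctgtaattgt
rgs1: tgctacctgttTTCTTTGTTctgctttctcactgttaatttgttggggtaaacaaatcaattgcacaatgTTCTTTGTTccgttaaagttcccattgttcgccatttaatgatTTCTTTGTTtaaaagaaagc
ste4: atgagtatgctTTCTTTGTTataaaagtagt
spk1: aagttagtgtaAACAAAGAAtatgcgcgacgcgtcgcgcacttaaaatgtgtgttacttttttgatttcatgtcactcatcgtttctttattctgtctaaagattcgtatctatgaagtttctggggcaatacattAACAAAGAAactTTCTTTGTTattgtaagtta
ste11: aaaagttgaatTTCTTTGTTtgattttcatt

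The *ste11* core began 127 bases before the annotated start and the *ste4* core 54 bases before it. At *rgs1* the 3 cores began 187, 128 and 85 bases before the start, all on the strand of the gene. At *spk1* they began 187, 62 and 50 bases before it, the first pair on the opposite strand to the last, with 3 bases between the cores at 62 and 50. The annotated *mam2* transcript starts at its first codon, so its window is set by the coding sequence. By contrast, the *ste11* transcript runs 2210 bases from its start to its first codon, and its exon is 4025 bases long. In a window of 1000 bases before the start, chosen after the data were seen, TTCTTTGTT was still present at 4 of the 9 genes (5.64% of all) and CTTTGTT at 7, now with *ras1* (30.8% of all).

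The libraries held between 23254907 and 34871124 counts, and their counts at the deleted genes and at markers of mating type were checked first. The *ecl3* gene had counts of 0, 0 and 1 in *ecl123*Δ and 0, 0 and 0 in *ecl3*Δ, against 23, 15 and 42 in WT. The mean normalized count of *ecl1* was 3070.2 in *ecl123*Δ and 459 in WT, and that of *ecl2* was 2152 and 1556, but their annotated mRNAs run 577 and 1254 bases past ORFs of 243 and 255 bases, so these counts do not check the deletion of either ORF. Of 8 M-cell markers matched, *mam1*, *mfm1*, *mfm2* and *mfm3* were expressed, while *mat1-Mc*, *mat1-Mi*, *mat3-Mc* and *mat3-Mi*, which lie in near-identical cassettes, had at most 1 count in any library. The summed normalized count of the M-cell markers was 2031 to 2253 in *ecl123*Δ, 3168 to 5747 in *ecl3*Δ and 5107 to 5258 in WT. It moved with the levels of the pathway genes described below, and its part in them was not tested. The expressed M-cell markers are also on the list of Ste11-dependent genes below. Differences in their sum between strains therefore do not check mating type. That of the P-cell markers *map2* and *map3* was 388 to 539.5, 365 to 508 and 347 to 423 in the same order of strains, and *mat1-Pc* and *mat1-Pi* were not matched by name. The libraries did not stand equally close to their own strain. Among pairs of replicates, the mean squared difference over genes in units of the counting error was 214 and 251 for *ecl123*Δ replicate 3 against its pair, 81.1 for *ecl3*Δ replicates 1 and 2, and between 8.18 and 44.0 for the others.

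In *ecl123*Δ cells, 7 of the 9 mRNAs were lower than in WT at an adjusted p of at most 0.05, 0 were higher, and the largest differences were at the receptor gene and at the kinase and transcription factor genes that close the pathway. The receptor gene *mam2* was 5.44-fold lower, the transcription factor gene *ste11* 4.18-fold, the MAP kinase gene *spk1* 3.74-fold, the adaptor gene *ste4* 2.42-fold, *rgs1* 2.27-fold and *gpa1* 2.13-fold. The MAP kinase kinase gene *byr1* was lower by a smaller factor, 1.40-fold. The Ras gene *ras1* and the MAP kinase kinase kinase gene *byr2* did not pass the test. Of all 6257 genes tested, 36 were lower at this adjusted p (0.575%). With a further limit of 2-fold and a mean normalized count of 100, 6 of the 9 were lower, against 28 of all genes (0.447%). The median log2 fold change was -1.18 for the 9 genes and 0.00 for all genes. The study names several of these genes from the same libraries, so the counts are not independent evidence of their direction. In bulk RNA, fewer cells expressing a gene and less RNA of it per cell cannot be told apart.

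**Figure D1:**
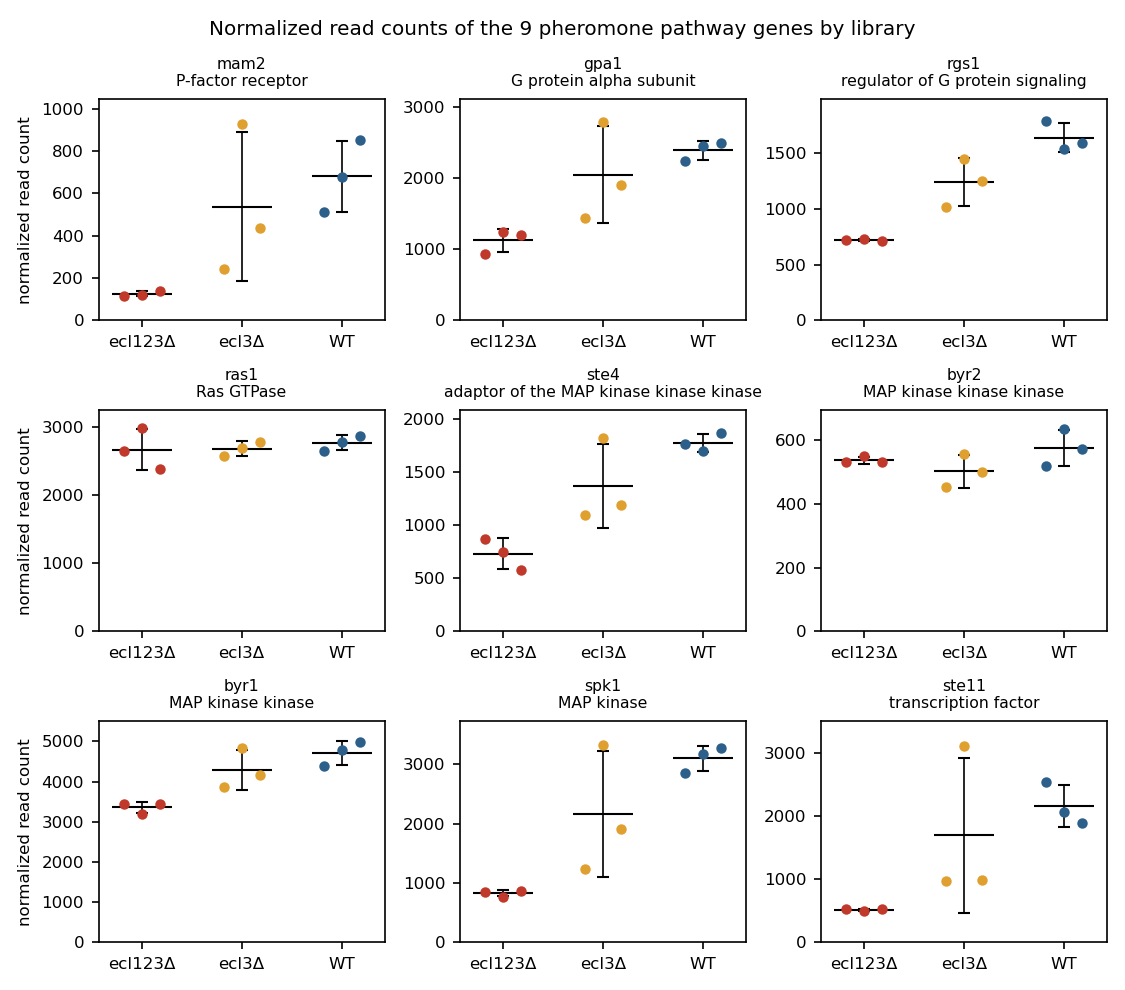
Normalized read count (y axis, from 0) of each of the 9 genes in each library of *ecl123*Δ, *ecl3*Δ and WT (x axis), in pathway order; points are libraries in order of replicate number, horizontal lines are means and bars are SD (n = 3). The *ecl123*Δ points lie below all WT points for 7 genes and overlap them for *ras1* and *byr2*, and in *ecl3*Δ replicate 2 is the highest point for every gene but *ras1*.

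At the receptor, *mam2* had normalized read counts of 116, 120.3 and 138 in *ecl123*Δ cells, against 513, 677 and 849 in WT. Every *ecl123*Δ library was below every WT library by a wide gap, although the WT libraries were themselves spread by 1.65-fold. This gave a log2 fold change of -2.44 (standard error 0.43, 95% interval -3.39 to -1.49, adjusted p = 0.0401 by the quasi-likelihood test of edgeR). The *gpa1* counts were 940.1, 1237 and 1200.1 in *ecl123*Δ and 2237, 2448 and 2492 in WT, again without overlap. The difference came to -1.09 on the log2 scale (standard error 0.21, edgeR adjusted p = 0.0424). The gene of the dampener Rgs1 fell along with those of the receptor and the G protein that it restrains. Its counts of 721, 731 and 714 in *ecl123*Δ were the most uniform of the 9 genes, within 1.02-fold of each other, against 1785, 1536 and 1590.0 in WT. For *rgs1* the log2 fold change was -1.18 (standard error 0.13, edgeR adjusted p = 0.00695), and its p ranked 3 among all genes tested.

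The GTPase gene stood apart from these. The counts of *ras1* were 2636, 2974 and 2374 in *ecl123*Δ, against 2644, 2779.7 and 2866 in WT, and the groups overlapped. On the log2 scale the difference was -0.05, with a 95% interval of -0.26 to 0.15 and an adjusted p of 0.806 in edgeR. The adaptor gene *ste4*, whose product links Byr2 to the upstream signal, had counts of 870.4, 748 and 579.7 in *ecl123*Δ and 1767, 1693 and 1865 in WT. All 3 *ecl123*Δ values were below the lowest WT value, with replicate 3 the lowest. For *ste4* the difference was -1.28 on the log2 scale (standard error 0.20, edgeR adjusted p = 0.0336).

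Within the kinase cascade the 3 tiers differed in size of effect. For *byr2*, the first tier, the counts were 533, 551 and 531 in *ecl123*Δ and 519.9, 635 and 574 in WT, which overlapped. Its log2 fold change was -0.10, with a 95% interval of -0.37 to 0.17 and an adjusted p of 0.729 in edgeR. For *byr1*, the second tier, the counts were 3432, 3206 and 3436 in *ecl123*Δ and 4380.4, 4775 and 4973 in WT. These did not overlap, and the log2 difference of -0.49 (standard error 0.10, edgeR adjusted p = 0.0464) was short of the 2-fold limit. For *spk1*, the MAP kinase at the last tier, the counts were 842, 769.7 and 873 in *ecl123*Δ and 2850.0, 3169 and 3267 in WT. The gap between the highest *ecl123*Δ library and the lowest WT library was wide, and the log2 difference was -1.90 (standard error 0.29, edgeR adjusted p = 0.0336). For *ste11* the counts were 531, 496 and 526 in *ecl123*Δ and 2537, 2060.4 and 1894 in WT. The log2 difference was -2.06 (standard error 0.40, 95% interval -2.96 to -1.16, edgeR adjusted p = 0.0455), and the *ecl123*Δ libraries lay within 1.07-fold of each other.

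Set beside the promoter sequences, the 6 genes with a CTTTGTT core near their start were the 6 that were lower by at least 2-fold, and the 3 without one were *ras1*, *byr2* and the modestly lower *byr1*. This is a side-by-side description of 9 genes, and the pathway had been chosen with its levels known. The match between core and level held only for the 7-base core in the shorter window. The full TTCTTTGTT core was absent at *mam2* and *gpa1*, and in the window of 1000 bases *ras1* also held CTTTGTT. Of all genes, 532 of 5138 held CTTTGTT near their start (10.4%), while 28 of 6257 were lower within the 2-fold and count limits (0.447%). Most genes with that core were therefore not called lower. Groups did not overlap, with *ecl123*Δ the lower, for 7 of the 9 genes, against 850 of 6257 genes (13.6%). The adjusted p values other than that of *rgs1* lay between 0.0336 and 0.0464 for the genes called, and most calls were lost without certain libraries. The count of lower genes was 0 of 9 without WT replicate 1 or without *ecl123*Δ replicate 1, and 1 of 9, *rgs1*, without WT replicate 2, WT replicate 3 or *ecl3*Δ replicate 3, and in these 5 fits 0 or 1 of all genes were lower. It was 3 of 9 without *ecl123*Δ replicate 2, 5 of 9 without *ecl123*Δ replicate 3 and 7 of 9 without *ecl3*Δ replicate 1 or 2, with 46, 61, 123 and 277 of all genes lower in these 4 fits. The log2 fold changes themselves moved little, between -2.61 and -2.25 for *mam2*, -2.15 and -1.93 for *ste11* and -1.22 and -1.11 for *rgs1* over 15 alternatives.

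**Figure D2:**
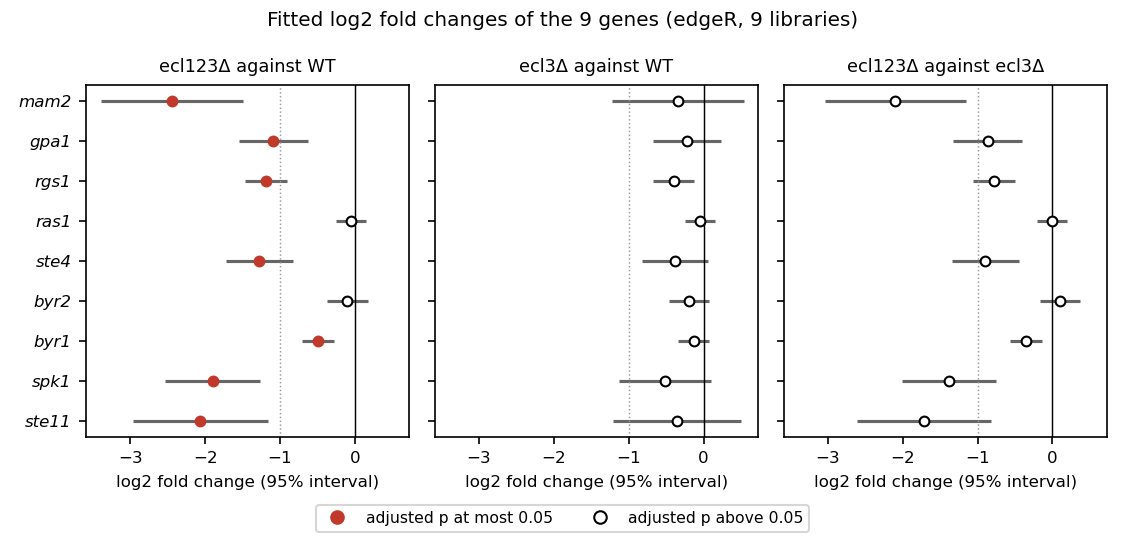
Fitted log2 fold change (x axis) of each gene (y axis, in pathway order) in 1 panel for each pair of strains (*ecl123*Δ over WT, *ecl3*Δ over WT, *ecl123*Δ over *ecl3*Δ), with 95% intervals from the edgeR fit of 9 libraries; filled points passed an adjusted p of 0.05, and the dotted line marks 2-fold lower. The 7 filled points are all in *ecl123*Δ against WT, with *ras1* and *byr2* near 0 in that panel.

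In *ecl3*Δ cells, 0 of the 9 genes passed the adjusted p against WT in edgeR, where 0 of all 6257 genes were lower (0%), with or without the further limits of fold and count (0%). The deleted gene *ecl3*, with counts of 0, 0 and 0 in *ecl3*Δ against 23, 15 and 42 in WT, was therefore not called either. The 0 of 9 thus does not show that the pathway genes were unchanged. At an unadjusted p under 0.05, 1 of the 9 was lower and 0 higher, against 48 lower and 53 higher of all genes. DESeq2 also called 0 of the 9, and 2 of all genes lower. The fitted log2 fold changes lay between -0.52 for *spk1* and -0.05 for *ras1*. The gene with the unadjusted p under 0.05 was *rgs1*, with counts of 1019, 1448 and 1253 in *ecl3*Δ against 1785, 1536 and 1590.0 in WT. Its log2 fold change was -0.40 (standard error 0.12, 95% interval -0.68 to -0.13, edgeR adjusted p = 1.00). It was the 1 gene of the 9 without overlap between *ecl3*Δ and WT, against 344 of 6257 genes that were lower without overlap (5.5%).

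The means of *ecl3*Δ cells describe its libraries poorly, because the libraries differed among themselves at the same genes that were low in *ecl123*Δ. The *ste11* counts were 976, 3118 and 993 in *ecl3*Δ replicates 1, 2 and 3, of which replicate 2 was above all WT libraries and the other pair below all of them. The *spk1* counts were 1239, 3323 and 1914, and those of *mam2* were 245, 928 and 435, with the same library highest. The receptor-level gene *gpa1* had 1447, 2791 and 1909, *ste4* had 1091, 1821 and 1187, and *byr1* had 3868, 4826 and 4176. Of the genes not called in *ecl123*Δ against WT, *ras1* varied less, with counts of 2565, 2691 and 2776. The *byr2* counts were 454, 557 and 499, with a ratio of highest to lowest of 1.23, close to the 1.25 of *byr1*. Replicate 1 was the lowest *ecl3*Δ library for 9 of the 9 genes and replicate 2 the highest for 8 of the 9. Both held for 8 of the 9, against 1178 of 5019 coding genes (23.5%).

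The SD of log2 CPM (counts scaled by library size) between replicates was widest in *ecl3*Δ for 8 of the 9 genes, and for *ras1* it was narrowest there. For *byr2* it was 0.147 in *ecl3*Δ and 0.144 in WT, and on normalized counts its SD was wider in WT (57.7 against 51.5). The ratio of the highest to the lowest library of *ste11* was 1.07 in *ecl123*Δ, 3.19 in *ecl3*Δ and 1.34 in WT. For *mam2* it was 1.19, 3.79 and 1.65 in the same order of strains, and for *spk1* it was 1.13, 2.68 and 1.15. By the SD of log2 CPM between replicates, *ste11* was at percentile 7.31 of coding genes in *ecl123*Δ, 99.3 in *ecl3*Δ and 92.3 in WT. For *mam2* the percentiles were 30.4, 99.3 and 97.3, so this gene was also uneven in WT. The median SD of the 9 genes was 0.09 in *ecl123*Δ, 0.40 in *ecl3*Δ and 0.10 in WT, beside 0.20, 0.10 and 0.07 for all coding genes. What made *ecl3*Δ replicate 2 differ from the other pair was not tested.

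**Figure D3:**
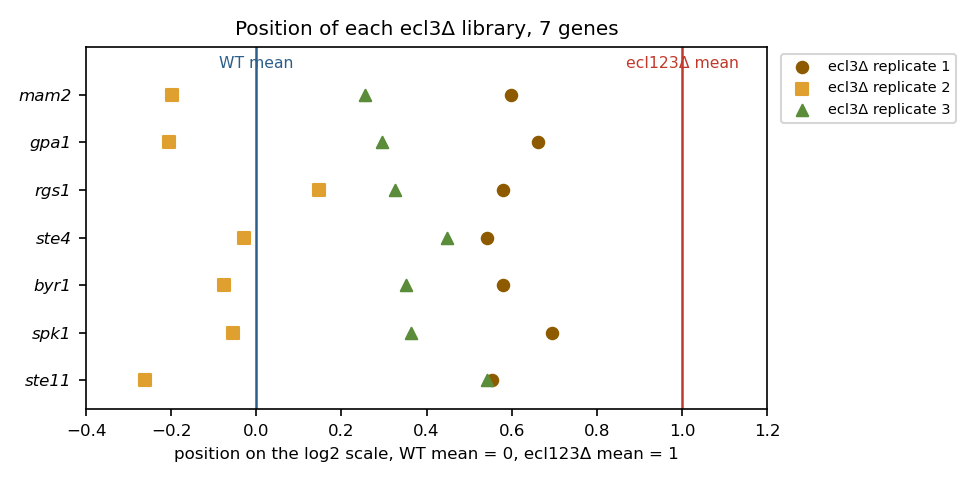
Position of each *ecl3*Δ library (points, by replicate) between the WT mean (0) and the *ecl123*Δ mean (1) on the log2 CPM scale (x axis), for the 7 genes whose *ecl123*Δ and WT libraries do not overlap (y axis). Replicate 1 lies at 0.54 to 0.69, replicate 3 at 0.25 to 0.54 and replicate 2 at -0.26 to 0.15.

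To place each *ecl3*Δ library between the other strains, the distance from the WT mean to the *ecl123*Δ mean was taken as 1 for each of the 7 genes that did not overlap between those strains. Replicate 1 lay at a median of 0.58, with a range of 0.54 to 0.69. Replicate 2 lay at a median of -0.08, with a range of -0.26 to 0.15, and replicate 3 at a median of 0.35, with a range of 0.25 to 0.54. For every one of the 7 genes replicate 1 was nearest to *ecl123*Δ, replicate 2 nearest to WT and replicate 3 between them, and replicates 1 and 3 were closest to each other at *ste11*, at 0.55 and 0.54. Without *ecl3*Δ replicate 2, *ste11* passed the adjusted p against WT, at a log2 fold change of -1.14 and an adjusted p of 0.0199 in edgeR. That library held the highest *ste11* count of the strain, 3118 against 976 and 993. A lower mean and a narrower spread of *ste11* therefore follow from leaving it out. In the fit without replicate 2, 1 of the 9 genes and 30 of all genes were lower, and *spk1* had a log2 fold change of -0.98 with an adjusted p of 0.0522. Leaving out any other library gave 0 of the 9.

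Between the mutants, 0 of the 9 genes passed the adjusted p in *ecl123*Δ against *ecl3*Δ in edgeR, where 0 of all genes were lower (0%), also with the further limits (0%). At an unadjusted p under 0.05, 7 of the 9 were lower and 0 higher, against 284 lower and 385 higher of 6257 genes. The same 7 genes did not overlap between the groups, against 264 of 6257 genes that were lower without overlap (4.22%). The log2 fold change was -2.10 for *mam2* (standard error 0.42, edgeR adjusted p = 0.140), -1.71 for *ste11* (standard error 0.40, edgeR adjusted p = 0.157) and -1.38 for *spk1* (standard error 0.28, edgeR adjusted p = 0.140). For *rgs1* it was -0.78 (standard error 0.13), with the lowest adjusted p of the 9 at 0.0682 in edgeR. The log2 fold changes of *ste4*, *gpa1* and *byr1* were -0.90, -0.86 and -0.35. The median of the 9 genes was -0.86 beside 0.00 for all genes, and *ras1* (-0.01, 95% interval -0.21 to 0.19) and *byr2* (0.10, 95% interval -0.17 to 0.37) were near 0. DESeq2 called 6 of the 9 lower, all but *byr1* of the 7 above, with *ste11* at an adjusted p of 0.0192, and 65 of all genes lower. Without *ecl3*Δ replicate 1, edgeR called 3 of the 9, which were *mam2*, *rgs1* and *spk1*, and 9 of all genes, and without *ecl123*Δ replicate 2 it called 1, *rgs1*, and 12 of all genes. Since this comparison and those with WT share libraries, their values are set side by side and no relation between them is drawn.

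Per kilobase of exon, the pathway genes differed widely in level in WT, with *byr1* and *ras1* abundant and *mam2*, *ste11* and *byr2* scarce. The low place of *ste11* rests on its annotated exon of 4025 bases. Before scaling by length, its mean normalized count in WT was 2164, above the 1775 of *ste4*. The level in WT, in normalized counts per kilobase, was highest for *byr1* at 2708 ± 173 (SD, n = 3) and *ras1* at 2514 ± 102, whose libraries overlapped. Then came *ste4* at 1659 ± 80.3 and *spk1* at 1569 ± 110.4, which also overlapped, *gpa1* at 1097 ± 62.4 and *rgs1* at 784 ± 62.8. The lowest were *mam2* at 550.5 ± 136 and *ste11* at 538 ± 82.8, which overlapped, and *byr2* at 251 ± 25.1. In *ecl123*Δ cells *ras1* led at 2422 ± 273, ahead of *byr1* at 1931 ± 75.7, without overlap. The last 3 places were held by *byr2* at 234 ± 4.78, *ste11* at 129 ± 4.65 and *mam2* at 101 ± 9.47, with no overlap between neighbours. The kinase gene *byr2*, the least abundant of the 9 in WT, was thus above the transcription factor and receptor genes in *ecl123*Δ. In *ecl3*Δ the order of the means was that of WT, but 6 of the 8 pairs of neighbours overlapped.

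**Figure D4:**
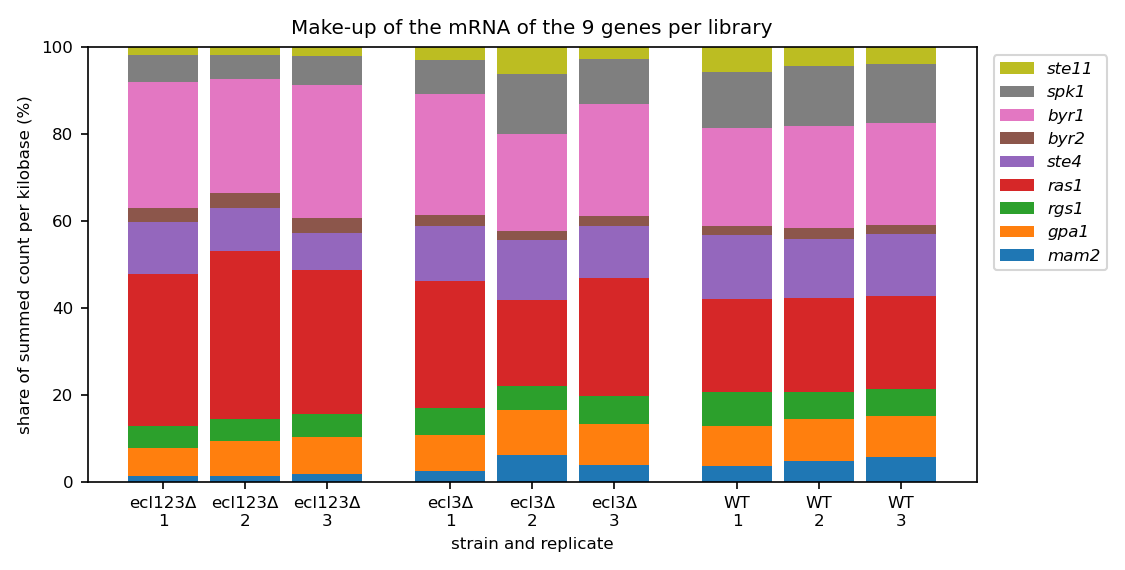
Share (y axis, %) of each gene in the summed normalized count per kilobase of the 9 genes, for each library (x axis, strain and replicate). The *ras1* share is larger in the *ecl123*Δ libraries, at 33.3% to 38.6%, than in the WT libraries, at 21.4% to 21.7%, and the *spk1* share is smaller.

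Summed over the 9 genes, the level per kilobase was 6783 ± 271 (SD, n = 3) in *ecl123*Δ, 9883 ± 2236 in *ecl3*Δ and 11670.0 ± 502 in WT. The make-up of that sum differed between strains as the unequal fold changes require. The *ras1* share was 35.6% ± 2.68 in *ecl123*Δ and 21.5% ± 0.140 in WT, and that of *byr1* was 28.5% ± 2.11 and 23.2% ± 0.563. The *spk1* share was 6.20% ± 0.629 in *ecl123*Δ and 13.4% ± 0.446 in WT. The *ste11* share was 1.90% ± 0.131 in *ecl123*Δ and 4.63% ± 0.912 in WT, and the *mam2* share was 1.37%, 1.39% and 1.72% in the *ecl123*Δ libraries and 3.72%, 4.70% and 5.65% in the WT libraries. Shares within a sum are not independent, since a fall of some genes raises the share of the rest: the count of *ras1* itself did not pass the test.

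The genes around the pathway were read from the same fit. Of 14 other components of the pheromone pathway, 0 were lower and 0 higher in *ecl123*Δ against WT in edgeR, with a median log2 fold change of -0.08 beside 0.00 for all genes. At an unadjusted p under 0.05, 3 of the 14 were lower, against 607 of 6257 genes, and DESeq2 called 2, *ste6* and *cwp1*, among 265 of all genes. The gene of this list with the smallest p was *ste6*, the guanine nucleotide exchange factor that activates Ras1 in mating. Its normalized counts were 423, 429.5 and 538 in *ecl123*Δ and 869, 862 and 978 in WT, without overlap. The log2 fold change of *ste6* was -0.96 (standard error 0.20), with an adjusted p of 0.0547 in edgeR that lay between 4.06e-04 and 0.236 over 15 alternatives and passed in 5. Next were *cwp1* (-0.50, edgeR adjusted p = 0.111), which encodes a prenyltransferase alpha subunit, the Cdc42 scaffold gene *scd2* (-0.50, edgeR adjusted p = 0.202) and the farnesyltransferase beta subunit gene *cpp1* (-0.22, edgeR adjusted p = 0.255). The other exchange factor of Ras1, *efc25*, and its GTPase-activating protein gene *gap1* had log2 fold changes of -0.05 and -0.07.

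Of 10 other genes known to depend on Ste11, 3 were lower and 0 higher in *ecl123*Δ against WT, with a median of -0.69. The list also holds *ste6*, *mei2* and *map3*, and of all 6257 genes 36 were lower (0.575%). The 3 lower genes were the M-factor precursor genes *mfm1* (-2.90, edgeR adjusted p = 0.0340) and *mfm2* (-1.45, edgeR adjusted p = 0.0324) and the M-factor transporter gene *mam1* (-1.11, edgeR adjusted p = 0.0423). These are 3 of the 4 expressed M-cell markers. The *mfm2* counts were 958, 867 and 701 in *ecl123*Δ and 2081, 2489.5 and 2311 in WT. The *mam1* counts were 1029, 1244 and 1512 in *ecl123*Δ and 2898, 2476 and 2790.2 in WT, while *mfm1* was scarce, at 19.4, 14.9 and 8.70 against 87.5, 132 and 103. The third M-factor gene, *mfm3*, had counts of 24.2, 28.6 and 30.9 in *ecl123*Δ and 41.1, 45.1 and 53.6 in WT, a log2 fold change of -0.74 with an adjusted p of 0.213 in edgeR. The count of lower genes in this list was 0 without any 1 WT library, *ecl3*Δ replicate 3 or *ecl123*Δ replicate 1, and 5 without *ecl123*Δ replicate 3. Where the list had 0, 0 or 1 of all genes were lower, and where it had 5, 61 of all genes were lower. The P-factor precursor gene *map2* (0.50, edgeR adjusted p = 0.237) and the M-factor receptor gene *map3* (0.21, edgeR adjusted p = 0.628), which P cells use, were not called. Also on the list, *fus1* (0.01, edgeR adjusted p = 0.989) and *sxa2* (-0.04, edgeR adjusted p = 0.917) did not move. DESeq2 called 5 of the 10 lower, adding *ste6* and *mei2*, where it called 265 of all genes lower. In *ecl3*Δ against WT, 0 of these 10 genes passed in edgeR or DESeq2 and 0 had an unadjusted p under 0.05. In *ecl123*Δ against *ecl3*Δ, 0 passed in edgeR, 5 were lower at an unadjusted p under 0.05, against 284 of all genes, and DESeq2 called 4, against 65 of all genes.

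Of 19 regulators that act on *ste11* or its product, 0 were lower and 0 higher in *ecl123*Δ against WT in edgeR, with a median of 0.00. At an unadjusted p under 0.05, 2 of the 19 were lower, a share near that of all genes (607 of 6257), and DESeq2 called the same 2, *cgs1* and *mei2*. Of these, *mei2* is also on the list of Ste11-dependent genes above. The smallest p was that of *cgs1*, the regulatory subunit of protein kinase A. Its counts were 161, 148 and 201 in *ecl123*Δ and 481, 352 and 351 in WT, without overlap, and its log2 fold change was -1.22 (standard error 0.31, edgeR adjusted p = 0.0873). It was also uneven in *ecl3*Δ, with counts of 213, 461 and 203. The genes of the meiosis regulator Mei2 (-0.64, edgeR adjusted p = 0.0952), the response regulator transcription factor Prr1 (-0.25, edgeR adjusted p = 0.285) and the kinase Pat1, a repressor of Ste11 (-0.45, edgeR adjusted p = 0.382), followed, the last of these with 902 counts in *ecl3*Δ replicate 2 and 474 to 548 in the other pair.

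The MAP kinase cascades of other pathways gave a background for the pheromone cascade. Of 12 genes of the Sty1 stress cascade, 0 were lower and 0 higher in *ecl123*Δ against WT in edgeR, with a median of 0.08 and a range of -0.19 to 0.26. None had an unadjusted p under 0.05 and DESeq2 called 0. The 4 with the smallest p were the response regulator gene *mcs4* (-0.13, edgeR adjusted p = 0.380), the MAP kinase kinase kinase gene *wis4* (0.19, edgeR adjusted p = 0.528), the MAP kinase kinase gene *wis1* (-0.19, edgeR adjusted p = 0.629) and the transcription factor gene *atf1* (0.26, edgeR adjusted p = 0.663). Of 6 genes of the Pmk1 cell integrity cascade, 0 were lower and 0 higher in edgeR, 0 at an unadjusted p under 0.05 and 0 in DESeq2, with a median of 0.02 and a range of -0.01 to 0.08. These included the MAP kinase kinase kinase gene *mkh1* (0.08), the protein kinase C gene *pck2* (0.06), the GTPase gene *rho2* (0.03) and the phosphatase gene *pmp1* (-0.01). The directions of *wis1*, *atf1*, *mkh1*, *pck2*, *rho2* and *pmp1* flipped in at least 1 alternative.

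Several pathway genes overlap a gene on the opposite strand. The library kit keeps strand, but the strand setting of the counting is not given in the sources used here, so shared reads cannot be told apart. The case with the most reads is *spk1*, 1525 of whose bases overlap *hem4*, a heme synthesis gene that averaged 3989 in *ecl123*Δ and 3413 in WT (log2 fold change 0.23, edgeR adjusted p = 0.162), while *spk1* fell. The noncoding RNA *SPNCRNA.674* lies opposite 1739 bases of *byr1* and averaged 359.8 in *ecl123*Δ and 280.2 in WT (log2 fold change 0.36, edgeR adjusted p = 0.314). Opposite 1032 bases of *gpa1*, *SPNCRNA.1503* averaged 709 in *ecl123*Δ and 1205 in WT (log2 fold change -0.77, edgeR adjusted p = 0.123), so its value pointed the same way as *gpa1*. Opposite 678 bases of *rgs1*, *SPNCRNA.675* averaged 291 and 370.5 in the same strains (log2 fold change -0.35, edgeR adjusted p = 0.415). The coding gene *leu5* lies opposite 1022 bases of *ras1* and had a log2 fold change of 0.05. The overlaps at *ste4* (26 bases) and at *byr2* with *mrpl7* (50 bases) are short. Longer noncoding RNAs are annotated opposite 1543 bases of *byr2* (*SPNCRNA.5332*) and opposite 591 and 946 bases of *ste11* (*SPNCRNA.6380* and *SPNCRNA.6381*), and their levels were not analysed here.

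**Figure D5:**
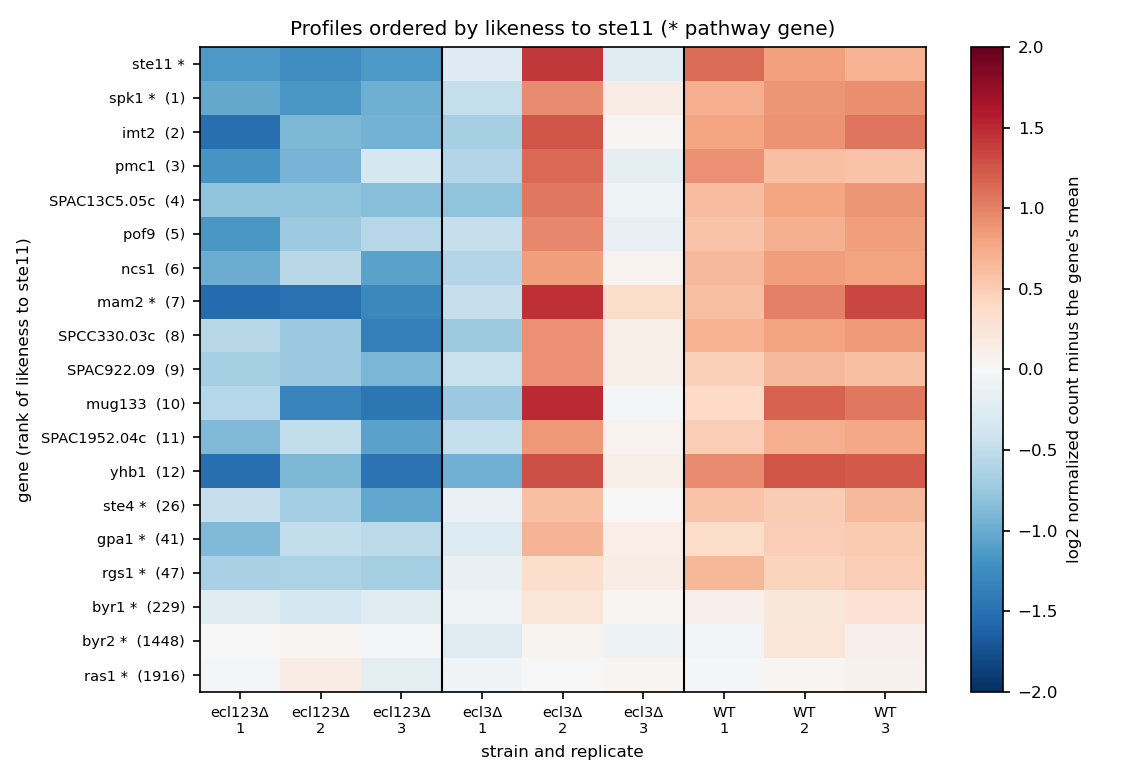
Log2 normalized count minus the mean of the gene over 9 libraries (color, from -2 to 2) in each library (x axis, strain and replicate), for *ste11*, the other 8 pathway genes (marked *) and the 10 other coding genes nearest to *ste11* (y axis, with the rank of likeness in parentheses). The rows ranked 1 to 12 are low in *ecl123*Δ, high in WT and in *ecl3*Δ replicate 2, below the mean in *ecl3*Δ replicate 1, and between replicates 1 and 2 in *ecl3*Δ replicate 3.

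The genes whose profile was most like that of *ste11* were found among the 4824 coding genes that averaged 100 normalized counts or more, by the root mean square difference of log2 CPM centered on the mean of each gene over the 9 libraries. The nearest of all was *spk1*, at 0.272, where the median over all ranked genes was 0.988. The receptor gene *mam2* was at rank 7 (0.383), *ste4* at rank 26 (0.461), *gpa1* at rank 41 (0.513) and *rgs1* at rank 47 (0.529). The genes *byr1*, *byr2* and *ras1* were at ranks 229, 1448 and 1916. The likeness is over 9 libraries of 3 strains, which all genes share, and says nothing of shared control.

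The 10 nearest genes outside the pathway were, in order of rank, *imt2*, *pmc1*, *SPAC13C5.05c*, *pof9*, *ncs1*, *SPCC330.03c*, *SPAC922.09*, *mug133*, *SPAC1952.04c* and *yhb1*, at root mean square differences between 0.296 and 0.408. Their log2 fold changes in *ecl123*Δ against WT lay between -2.41 and -1.34, and *ncs1*, *SPAC1952.04c* and *yhb1* passed the adjusted p in edgeR. The nearest, *imt2*, which encodes a sphingolipid mannosyltransferase, had counts of 339.8, 514 and 499 in *ecl123*Δ, 606, 2297 and 976 in *ecl3*Δ and 1662, 1802 and 2015 in WT. Its log2 fold change was -2.02 (edgeR adjusted p = 0.0526). The vacuolar calcium pump gene *pmc1* had a log2 fold change of -1.48 (edgeR adjusted p = 0.0948), that of the neuronal calcium sensor homolog Ncs1 was -1.62 (edgeR adjusted p = 0.0423), and that of *yhb1*, a nitric oxide dioxygenase gene, was -2.41 (edgeR adjusted p = 0.0423). In *ecl3*Δ replicate 2 all 10 were above replicates 1 and 3, as was *ste11*. The 10 were picked for their likeness to *ste11* over these same libraries. This pattern and their lower values in *ecl123*Δ therefore follow from the choice and are no separate result.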

How the data were processed

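Paired reads of 51 bases from stranded poly(A)+ libraries had been aligned by the authors to build ASM294v2 with HISAT2 2.1.0 and counted per gene with HTSeq 0.10.0 (strand setting not given in the sources used here), and the deposited table holds raw, unnormalized counts. All 9 of its columns were used, so 0 were left out. Library totals were 23254907 to 34871124, which limits the precision of scarce genes such as *mfm1*. The deposited DESeq2 tables hold the comparisons made by the authors (mean normalized counts, log2 fold changes, p-values) and were not used.

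Gene names, exon lengths and promoters came from RefSeq ASM294v3, by systematic ID (6836 of 6988 matched). That build is not the one of the counts, so no coordinates are given. The members and lists were chosen with earlier results of these data known. The named genes were the 9 members, up to 4 genes per list with the smallest p in *ecl123*Δ against WT, and the 10 coding genes nearest to *ste11* in profile. The genes *efc25*, *gap1*, *mfm3*, *fus1* and *sxa2* and the overlapping genes were added for context.

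Counts were filtered by filterByExpr (6257 genes), normalized by TMM and tested by the quasi-likelihood test of edgeR 4.0.16 (limma 3.58.1, R 4.3.3) in 1 fit of 9 libraries, with Benjamini-Hochberg adjustment over all genes tested. Normalized counts are counts divided by the TMM-scaled library size, times the mean library size. Calls needed an adjusted p of at most 0.05 and, separately, also a 2-fold change and a mean of 100. For positions and profiles, a prior count of 2 was added before taking log2 CPM. The functions were tested on simulated data. The smallest p of an exact permutation test with 3 libraries per strain is 0.1. Alternatives were DESeq2 1.42.0, scaling by RLE or by library size, testing without the low-count filter, 2 strains in the fit, a replicate block, each library left out, a 1.5-fold limit, no minimum mean, a prior count of 0.5 and no length scaling.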

Additional observations from a re-analysis of the deposited data

How the results depend on the processing

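The count of 7 lower genes in *ecl123*Δ against WT was 7 with DESeq2, with library size alone, without the low-count filter and with only the 2 strains in the fit, and 6 with RLE size factors, where *byr1* was not called. Over the fits that left out 1 library it ranged from 0 to 7, and the count with the 2-fold limit from 0 to 6. That count of 6 held with a 1.5-fold limit and with no minimum mean. In *ecl3*Δ against WT both counts ranged from 0 to 1 over these fits and were 0 otherwise. In *ecl123*Δ against *ecl3*Δ they ranged from 0 to 3 and from 0 to 2. DESeq2 called 6 of the 9 genes in that comparison, 3 of them by at least 2-fold, where 65 of all genes were lower, whereas edgeR called 0; the cause was not tested. For the other Ste11-dependent genes, the counts ranged from 0 to 5 against WT in *ecl123*Δ and from 0 to 2 against *ecl3*Δ, and DESeq2 called 5 and 4. All genes called lower in *ecl123*Δ against WT numbered 36 in edgeR, 265 with DESeq2, 219 with only the 2 strains in the fit and 60 with the replicate block.

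Same-numbered libraries did not deviate together, with correlations between -0.18 and 0.22, and 2 of 9 libraries correlated best with their own number, so the replicate numbers were not taken to pair samples. With the replicate block, 6 of the 9 genes were lower in *ecl123*Δ against WT, all but *byr1*, 6 of them by at least 2-fold, and 0 were lower in the comparisons of *ecl3*Δ with WT or of *ecl123*Δ with *ecl3*Δ.

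Where a direction reversed, the reversed value was near 0. The main log2 fold change was not always so, as for *atf1* in *ecl123*Δ against WT (0.26) and *mam2* in *ecl3*Δ against WT (-0.35). Over the fits without 1 library, the log2 fold changes in *ecl123*Δ against WT ranged from -0.14 to 0.018 for *ras1* (reversed without *ecl123*Δ replicate 3), -0.10 to 0.17 for *mkh1*, -0.073 to 0.16 for *pck2* and -0.016 to 0.54 for *atf1* (all without the same library), -0.027 to 0.086 for *rho2* (without *ecl123*Δ replicate 2), -0.32 to 0.0038 for *wis1* (without WT replicate 1) and -0.052 to 0.038 for *pmp1* (without WT replicate 3 or *ecl123*Δ replicate 2). DESeq2 and RLE size factors put *pmp1* at 0.00143 and 0.00190. In *ecl3*Δ against WT, *mam2* ranged from -1.01 to 0.0030 (reversed without *ecl3*Δ replicate 1). In *ecl123*Δ against *ecl3*Δ, *ras1* ranged from -0.095 to 0.058 (reversed without *ecl3*Δ replicate 3, *ecl123*Δ replicate 1 or *ecl123*Δ replicate 3). Without length scaling the *ras1* share was 25.1% in *ecl123*Δ and 14.0% in WT. That of *byr1* was then 31.7% and 23.8%, so the lead of *ras1* over *byr1* in *ecl123*Δ depends on the scaling by exon length. Median positions were equal to 2 decimals with a prior count of 0.5.

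In the window of 1000 bases, the members with a CTTTGTT core numbered 7 and those with TTCTTTGTT 4. Depth limits the value of *mfm1*, whose normalized counts of 8.70 to 19.4 in *ecl123*Δ leave its fold change resting on few reads.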
